A study of Mus musculus with 3 samples.

Results

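Pafah1b3, Sbk1, Cecr2, Lrmp, Serinc5, Dpp4 and Cnn3 are 7 genes that do not belong to the classical set of B-lymphocyte markers and whose transcripts were lower with testosterone in mouse bone marrow, beside the B-lineage genes. They were picked by name, and every array spot was kept that had a value on all 3 arrays and whose annotation gives exactly 1 of these genes. That gave 8 spots, 1 for each of 6 genes and 2 for Cnn3, of 4588 spots (3493 genes) with 1 gene name and 3 values. The genes were picked because they fell on these same arrays, so their ratios are described here and carry no test. Cd79b, with 1 spot, encodes part of the signalling unit of the B-cell receptor and serves as the yardstick of the B-lineage fall.

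The study set castrated C57BL/6 mice with testosterone pellets against castrated, matched mice with placebo pellets, using RNA from pulverized long bones that the labels call bone marrow. Testosterone pellets held 12.5 mg for release over 60 days and were carried for 4 weeks, and the labels give castration at 7 weeks and an age of 17 weeks for all mice. Each of the 3 two-colour arrays, T1, T2 and T3, held 1 testosterone mouse and its placebo partner (n = 3 pairs), with testosterone in Cy5 on T1 and T3 and in Cy3 on T2. Every value is a log ratio of testosterone to placebo within a pair, read as log2, so a negative value means lower with testosterone. This direction is likely and not settled, since it rests on the design text naming testosterone as the experimental channel. The log base is inferred from the range of the values, and with a natural log every fold below would be larger.

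Of 6039 spots with values on all arrays, 171 (2.83%) differed from a ratio of 0 by limma with Benjamini-Hochberg adjustment at 0.05, 103 lower and 68 higher. The arrays correlated over these spots at r = 0.42 (T1 with T2), 0.49 (T1 with T3) and 0.73 (T2 with T3). Their spread differed, with standard deviations of 0.32 (T1), 0.49 (T2) and 0.32 (T3). A ratio holds no level, so the tissue name could not be checked against levels of marker genes. RNA of a whole tissue cannot tell fewer cells of a type from less RNA per cell.

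As background, B lymphocytes arise in the marrow from progenitors that depend on interleukin-7 and on transcription factors such as E2A, EBF1, PAX5 and FOXO1, and assemble a pre-B-cell receptor whose signal runs through the CD79 chains. Androgens are known to hold back B lymphopoiesis, and castration of male mice expands marrow B-cell precursors. The 7 genes have varied roles outside that core: an enzyme of lipid mediators, a kinase, a chromatin protein, 2 membrane proteins, a cell-surface peptidase and an actin-binding protein. EBF1 is a transcription factor that binds a palindromic motif in many B-lineage promoters.

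Promoter windows were found for 3 of the 7 genes (Dpp4, Serinc5 and Cnn3) in the RefSeq promoter table of build GRCm38.p6, and they are shown because they were the members with a window and the windows differ in kind. Each stretch runs 5′ to 3′ on the gene's strand and ends before the outermost annotated transcript of the gene. Capitals mark every match, on either strand, to TCCC followed by GGGA after any 2 bases (EBF1 palindrome), TGCAAAT (core of the octamer), CAGGTG (an E-box of E2A type), GAGGAA (a core of PU.1 and other ETS factors), TGTTCT (an androgen receptor half-site), CCAAT (known to bind NF-Y), TATAAA (the box bound by TBP) and GGGCGG (a box known to bind SP1).
Dpp4, chr2:62412316-62412481, minus strand: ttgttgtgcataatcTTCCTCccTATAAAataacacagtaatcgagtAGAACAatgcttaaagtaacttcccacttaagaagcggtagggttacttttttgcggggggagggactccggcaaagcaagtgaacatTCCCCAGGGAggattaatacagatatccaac
Serinc5, chr13:92610888-92611137, plus strand: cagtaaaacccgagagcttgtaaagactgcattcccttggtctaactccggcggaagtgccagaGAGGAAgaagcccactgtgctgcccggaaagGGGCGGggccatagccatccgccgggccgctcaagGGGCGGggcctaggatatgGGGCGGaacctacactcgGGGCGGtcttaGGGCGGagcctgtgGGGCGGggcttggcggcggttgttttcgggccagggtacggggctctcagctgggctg
Cnn3, chr3:121426291-121426540, plus strand: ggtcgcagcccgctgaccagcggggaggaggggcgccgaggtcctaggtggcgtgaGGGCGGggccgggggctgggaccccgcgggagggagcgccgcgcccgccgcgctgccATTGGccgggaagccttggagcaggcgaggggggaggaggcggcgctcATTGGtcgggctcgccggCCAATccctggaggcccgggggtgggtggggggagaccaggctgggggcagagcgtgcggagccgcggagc

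The Dpp4 stretch holds 1 match to the EBF1 palindrome, TCCCCAGGGA, which lies 31 to 22 bases before the outermost start of the gene. That motif is in 0.779% of the 32851 promoter windows of all genes, each searched over the 250 bases before the start. Dpp4 also has a match to the androgen receptor half-site (in 16.1% of all windows), to the ETS core (23.3%) and to the TBP letters (12.4%), the last far upstream of the position such a box usually has. Serinc5 has 6 of the SP1 boxes (at least 1 is in 32.7% of windows) and 1 ETS core. In Cnn3 the search found 3 CCAAT letters (33.8%) and 1 SP1 box. The windows of Cnn3 and Serinc5 were rich in G and C, at 78.8% and 65.6%, and that of Dpp4 was poor, at 43.6%, against a median of 52.4% over all windows. None of the 3 windows held the octamer core (3.56% of windows) or CAGGTG (17.2%). A match is a run of letters, and no binding was measured here.

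All 8 spots were lower with testosterone on each of the 3 arrays, which 1806 of the 6039 spots (29.9%) were. Their means ran from -1.84 at Pafah1b3 to -0.65 at the first Cnn3 spot, against -2.11 at Cd79b, and the median of the 8 was -1.42. Every one of the 8 passed the limma threshold as lower, beside 1.71% of all spots tested that did so, a count that the choice of the genes fixes and from which nothing is read. Values below -1 on every array were found at 5 member spots (Pafah1b3, Sbk1, Cecr2, Lrmp and Serinc5), among 26 such spots (0.431% of those tested). Of these 26 spots, 22 had a single gene name, for 19 genes. Dpp4 lay just outside on T3 alone, and Cnn3 lay outside at both spots.

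**Figure D1:**
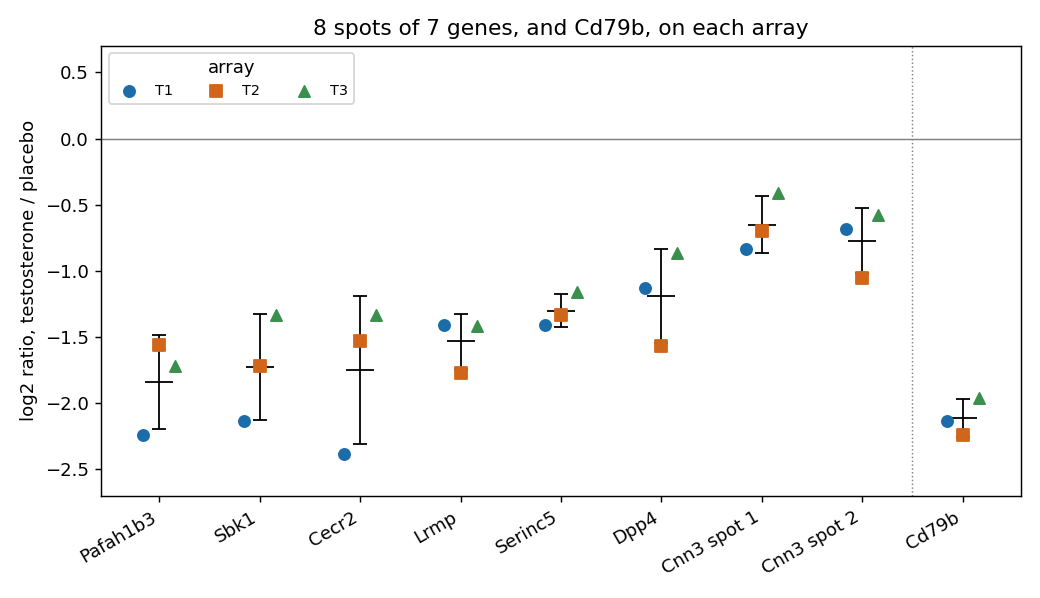
Log2 ratio of testosterone to placebo (vertical axis) for each member spot and Cd79b, with 1 point per array (T1, T2, T3) and the mean ± SD over 3 mouse pairs as bars. All points lie below 0, and T3 gives the highest value at 6 of the 8 member spots.

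Pafah1b3 encodes a catalytic subunit of the intracellular type I platelet-activating factor acetylhydrolase, which removes an acetyl group from that lipid mediator and associates with the LIS1 protein. Its log2 ratio was -2.24 (T1), -1.56 (T2) and -1.72 (T3). T1 was the lowest of the arrays, and there Pafah1b3 minus Cd79b was -0.10 on the log2 scale. The mean was -1.84 ± 0.36 (SD, n = 3), a 3.58-fold lower level with testosterone and the tenth lowest mean of all tested spots. On T2 and T3 it stood above Cd79b, by 0.68 and 0.24.

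Sbk1, a serine/threonine kinase with an SH3-binding region first described in brain, had log2 ratios of -2.13 (T1), -1.72 (T2) and -1.33 (T3). Its arrays were in the same order as those of Cecr2, Serinc5 and the first Cnn3 spot, with T1 lowest and T3 highest. On T1 its ratio differed from that of Cd79b by 0.001, and on T2 and T3 it was higher by 0.52 and 0.63. The mean of -1.73 ± 0.40 (n = 3) is a 3.31-fold lower level.

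Cecr2 is a bromodomain protein that forms chromatin remodelling complexes with ATPases of the ISWI family and is needed for neural tube closure in mice. It had the widest spread of the member spots, with -2.39 (T1), -1.53 (T2) and -1.34 (T3), and a mean of -1.75 ± 0.56 (n = 3; 3.37-fold lower). On T1 it was the fifth lowest of all tested spots and its difference from Cd79b there was -0.25. On T2 its rank was 26 and on T3 it was 20.

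Lrmp, also known as Jaw1 or Irag2, is a membrane protein of the endoplasmic reticulum in lymphocytes that binds inositol trisphosphate receptors. Its log2 ratios were -1.41 (T1), -1.77 (T2) and -1.42 (T3), with a mean of -1.53 ± 0.21 (n = 3; 2.89-fold lower). Here T2 was the lowest array, as it was for Cd79b, and T1 and T3 differed by 0.01. It stood above Cd79b by 0.73, 0.47 and 0.54 on T1, T2 and T3, a difference with an SD of 0.135 over the arrays.

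Serinc5, a multi-pass membrane protein known for lowering the infectivity of retroviruses, had the narrowest spread of the member spots. Its log2 ratios were -1.41 (T1), -1.33 (T2) and -1.16 (T3), for a mean of -1.30 ± 0.12 (n = 3; 2.46-fold lower). The SD of 0.125 was below that of Cd79b (0.141) and below the median SD of all tested spots (0.181). Serinc5 kept 59.3% to 65.9% of the log2 ratio of Cd79b on each array.

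Dpp4 encodes CD26, a cell-surface peptidase that trims dipeptides from chemokines such as CXCL12 and from incretin hormones, and that is best known on T cells. Its log2 ratios were -1.13 (T1), -1.57 (T2) and -0.87 (T3), and the mean was -1.19 ± 0.36 (n = 3; 2.28-fold lower). T2 was the lowest array and T3 the highest, the order that Cd79b also had. A further spot, annotated with Gcg, Fap and Dpp4 together, gave 0.26 on T1 and no value on T2 or T3, and was not counted among the members because its gene is not single.

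Cnn3, the acidic calponin, binds actin and tropomyosin, and has been described in precursor B cells of mice. The first of its 2 spots had log2 ratios of -0.84 (T1), -0.70 (T2) and -0.41 (T3), with a mean of -0.65 ± 0.22 (n = 3; 1.57-fold lower). The second spot gave -0.69 (T1), -1.05 (T2) and -0.58 (T3), with a mean of -0.77 ± 0.25 (n = 3; 1.71-fold lower). The spots disagreed on which array was lowest, T1 for the first and T2 for the second, and the second minus the first was 0.15 (T1), -0.35 (T2) and -0.17 (T3). Averaged over both spots, Cnn3 stood at -0.71 ± 0.20, which is 1.64-fold lower. Cnn3 is the one member whose call was lost when an array was left out: neither spot passed without T2 (means -0.62 and -0.63), without T3 (-0.77 and -0.87), or after median centring of the arrays (-0.61 and -0.74). The other 6 members passed in each of these fits. Calls as lower became fewer over all 6039 spots too, from 103 to 63 without T2, 38 without T3 and 53 after centring. The members were chosen by these values, so nothing particular to Cnn3 is read from its lost call.

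Because the arrays differed in spread, the ratios were also set against the width of each array. The median absolute deviation of all tested spots was 0.188 (T1), 0.277 (T2) and 0.171 (T3). In units of that deviation from the array's median, the 8 spots lay between -12.62 and -3.58 on T1, between -6.15 and -2.28 on T2 and between -9.88 and -2.23 on T3. T2 is the array with the deepest raw ratio for Lrmp, Dpp4 and the second Cnn3 spot, and its whole distribution is also the widest. Among all tested spots Cecr2 ranked 5 from the lowest on T1, Lrmp 16 on T2 and Pafah1b3 9 on T3, the lowest ranks any member reached. The first Cnn3 spot ranked 67 (T1), 206 (T2) and 331 (T3).

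**Figure D2:**
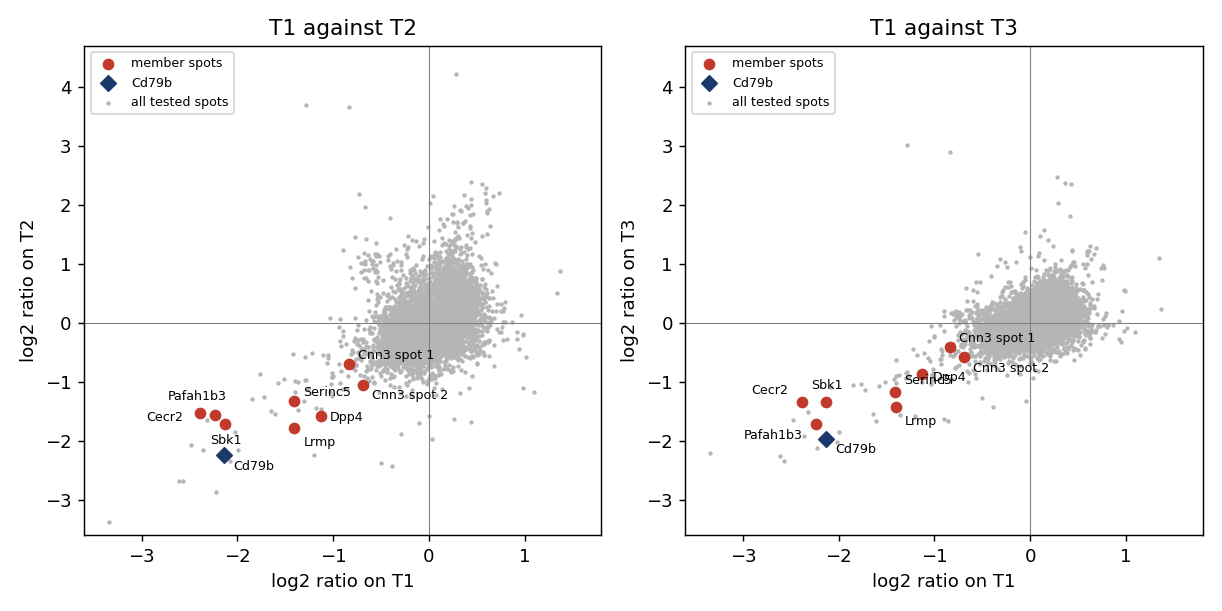
Log2 ratios of the member spots (red), Cd79b (blue diamond) and all 6039 tested spots (grey), T1 on the horizontal axis against T2 (left) or T3 (right) on the vertical axis. The members lie in the lower left tail, with Cnn3 at the edge of the main cloud and Pafah1b3, Sbk1 and Cecr2 nearest to Cd79b.

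Cd79b itself was nearly flat across the pairs, at -2.13 (T1), -2.24 (T2) and -1.96 (T3), with a mean of -2.11 ± 0.14 (n = 3; 4.32-fold lower). Likeness to it was measured as the root mean square of the differences in log2 ratio over the 3 arrays, which counts both depth and shape. With 3 arrays no correlation of profiles is given. Pafah1b3 was the nearest member (0.42), then Sbk1 (0.47), Cecr2 (0.56), Lrmp (0.59), Serinc5 (0.81), Dpp4 (0.94) and Cnn3 (1.40 for the mean of its spots). The spread of these steps bears on their order: the differences from Cd79b varied over the arrays with an SD of 0.39 for Pafah1b3, 0.34 for Sbk1 and 0.53 for Cecr2, so these 3 neighbours in the order are not separated beyond their spread. For the other members the distance was mostly depth. The mean difference from Cd79b and its SD were 0.58 and 0.135 for Lrmp, and 0.81 and 0.09 for Serinc5. Dpp4 had 0.92 and 0.22, and the Cnn3 spots had 1.46 and 0.14, and 1.34 and 0.13. By that SD alone, Serinc5 differed least from Cd79b in shape and Cecr2 most, so the order above is mainly one of depth. Without T1 the nearest member spot was Lrmp (0.51), without T2 it was Pafah1b3 (0.19) and without T3 it was Sbk1 (0.37).

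Ordered by distance from Cd79b among all other genes, Pafah1b3 came 4th, Sbk1 6th, Cecr2 9th, Lrmp 12th, Serinc5 15th, Dpp4 18th and Cnn3 49th. The choice of genes that fell on these arrays favours such ranks, since few genes fell as deeply. Only 19 named genes lay below -1 on every array, so the ranks are description only. Nearer still were Pou2af1, a coactivator of octamer-binding factors in B cells (0.29), Bach2, a repressor of B-cell differentiation genes (0.38), and Fcrla, a B-cell protein related to Fc receptors (0.41). For Fcrla this is the spot with values on all arrays. Seen from the members, Cd79b was not the closest gene to any of them. It ranked 7 from Pafah1b3, 11 from Sbk1 and 11 from Cecr2, then 26 from Lrmp, 101 from Serinc5, 439 from Dpp4 and 3440 of 3492 from Cnn3.

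**Figure D3:**
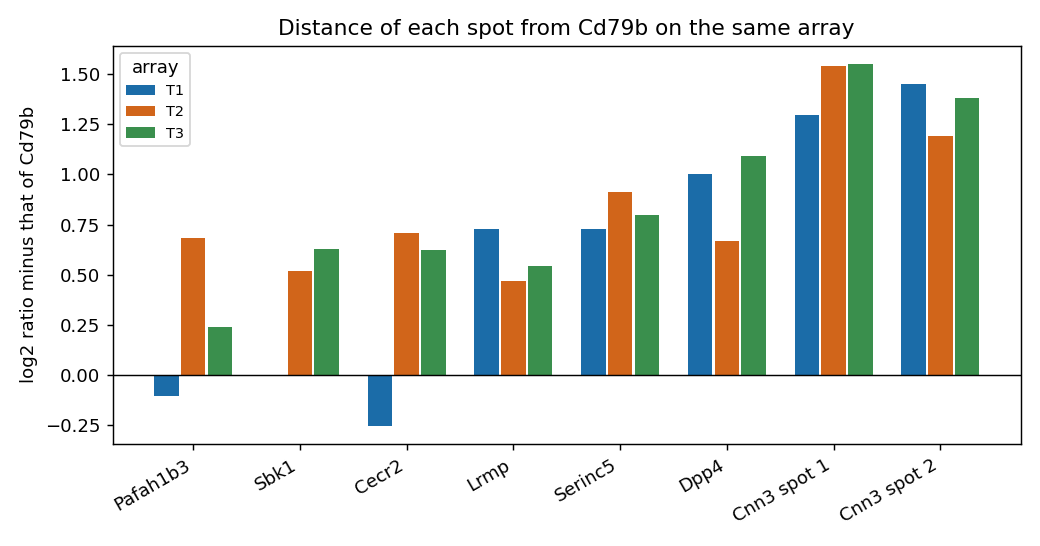
Log2 ratio of each member spot minus that of Cd79b on the same array (vertical axis), with 1 bar per array. Positive bars mean that the member fell less than Cd79b. On T1, Pafah1b3 and Cecr2 lie below 0 and Sbk1 at 0.001, and all other bars are positive.

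Pafah1b3, Sbk1 and Cecr2 were close to each other, at root mean square distances of 0.18 (Sbk1 with Cecr2), 0.24 (Pafah1b3 with Cecr2) and 0.25 (Pafah1b3 with Sbk1). The gene nearest to each of these was Sox4, a factor that B-cell progenitors need, at 0.14, 0.15 and 0.12 for Pafah1b3, Sbk1 and Cecr2. Sox4 averaged -1.82 ± 0.44 at the spot with values on all arrays. Its other spots differed from each other, at -2.04 and -1.91 on T1 and T2 for one and 0.43 and 0.15 on T1 and T3 for another.

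For Lrmp the nearest genes were Igfbp5, a binding protein of insulin-like growth factors (0.12), Siglecg, an inhibitory receptor of B cells (0.22), and the B-cell tyrosine kinase Blk (0.23). The place of Igfbp5 rests on the mean of its spots, which differed from each other on T2, at -2.235 and -1.473. Serinc5 and Dpp4 had the same nearest gene, Foxo1, a transcription factor of early B-cell development, at 0.13 from Serinc5 and 0.15 from Dpp4. Foxo1 averaged -1.22 over its spots. Serinc5 was next nearest to Ablim1, an actin-binding LIM protein (0.19), and to Smarca4, an ATPase of BAF chromatin remodelling complexes (0.19). Dpp4 was next nearest to Smarca4 (0.17) and Ankrd10 (0.21). Cnn3 was nearest to Ets1, a transcription factor of lymphocytes (0.07), then Herpud1, a protein of endoplasmic reticulum degradation (0.08), and Ivns1abp (0.10). The Cnn3 spots differed from each other by more than these distances, at 0.15 (T1), -0.35 (T2) and -0.17 (T3). Which genes are nearest to Cnn3 is therefore not resolved. These neighbours were found over 3 arrays by size of ratio, and likeness of this kind says nothing of a common role.

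The array of lowest ratio was T1 for 5 member spots, T2 for 3 and T3 for 0. T3 gave the highest ratio at 6 of the 8. Among the 10 B-lineage markers that passed, T1 was lowest for 4, T2 for 5 and T3 for 1, and T3 was highest for 8. No share over all tested spots is given beside these counts, and the arrays differ in spread. No shared profile is therefore read from them. Neutrophil markers (5 measured) had medians that fell from 0.60 (T1) to 0.11 (T2) and -0.15 (T3), though Mmp9 among them was lowest on T2 (-0.725). Cd27, the 1 measured gene of the T and NK cell list, fell likewise, at 1.37, 0.89 and 0.23. Medians of the erythroid, the monocyte and macrophage, the plasma and dendritic, and the stromal lists did not fall in that order. The part of any list in the arrays' order was not tested.

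The B-lineage list held 36 genes, of which 13 had values on all arrays: 10 were lower, 0 higher and 3 did not pass, beside 3.32% of all 3493 genes that were lower by the same gene-level limma fit. The list was assembled with earlier results of these arrays known, so its count is no independent evidence. Its median was -1.82 (array medians from -2.08 on T1 to -1.54 on T3), against a median of -0.07 over all genes. Of the 13, 10 were lower without T1, 9 without T2 and 10 without T3, beside 9.65%, 1.0% and 0.916% of all genes in those fits, and with the sign of T2 turned 0 were, as for all genes (0.0%); these settings of the list were added after its values were seen. The 3 lowest were Vpreb3, a chain made by precursors of B cells (-2.98 ± 0.66), Fcrla (-2.51 ± 0.22) and Bach2 (-2.47 ± 0.28). Another Fcrla spot was less low, at -1.779 on T1 and -1.455 on T3, against -2.608 and -2.256 at the spot used. The 3 that did not pass were Cd24a (0.09 ± 0.17), the mature B-cell antigen Ms4a1 (-0.25 ± 0.37) and the kinase Btk (-0.27 ± 0.12). The member means, from -1.84 to -0.65, lie within the range of this list. Fcer2a and Cr2, receptors of mature B cells, had values on T1 and T3 only, at 0.00 and -0.30 for one Fcer2a spot, 0.01 and -0.50 for the other, and -0.12 and 0.01 for Cr2. Cd22, an inhibitory receptor of B cells, had -0.86 and -0.60 at its spots on T1 alone, and the adaptor Blnk had -0.495 on T1 and -0.87 on T2.

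T-cell genes bear on Dpp4, which T cells carry, but the list of 30 T and NK cell markers had values on all arrays for 1 gene only. That gene was Cd27, a co-stimulatory receptor of lymphocytes, at 0.83 ± 0.57 (adjusted p = 0.0504 by limma). A further 10 genes of the list had values on fewer arrays. Lef1, a transcription factor of T cells and of early B cells, gave -1.72 on T1 and -1.32 on T2. On T1 alone the chemokine receptor Ccr7 gave -1.06, Cd4 -0.35, the chromatin organizer Satb1 0.02, the signalling kinase Zap70 0.04, Thy1 0.13 and the transcription factor Gata3 0.855 and 0.153 at its spots. Cd247, a chain of the T-cell receptor complex, gave -0.16 on T1 and -0.45 on T2, and the NK receptor Ncr1 gave 0.00 on T1 and 0.29 on T2. The interleukin-2 receptor chain Il2rb gave 0.32 and 0.05 on T1 and T3 at one spot and 0.18 and 0.22 at the other. The list held values on both sides of 0. With so few values the part of T cells in the ratio of Dpp4 was not tested.

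Marker lists of other cells of the marrow held no gene that passed by limma in either direction, beside 5.15% of all genes. At an unadjusted p under 0.05 there were 3 erythroid, 0 neutrophil, 3 monocyte and macrophage, 1 plasma and dendritic and 1 stromal gene, of 6, 5, 8, 3 and 12 measured, beside 28.1% of all genes. Erythroid markers (6 of 19 measured) had a median of 0.31, neutrophil markers (5 of 18) 0.04, monocyte and macrophage markers (8 of 17) 0.12, and plasma and dendritic cell markers (3 of 10) 0.14. Stromal, smooth muscle and endothelial markers (12 of 20) had a median of -0.17, and all 12 means lay below 0, the lowest being the matrix glycoprotein Sparc at -0.50 ± 0.50. The median over all genes was itself below 0, at -0.07. The highest mean was that of the heme enzyme Urod in the erythroid list (0.38 ± 0.31), of the integrin Itgam in the neutrophil list (0.33 ± 0.42), of the scavenger receptor Cd163 in the macrophage list (0.33 ± 0.18) and of the chemokine receptor Ccr9 in the plasma and dendritic list (0.35 ± 0.22). The part of changed cell numbers in the members' ratios was not tested.

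The relatives of the members were listed by kinship, but with earlier results of these arrays known, so their counts are descriptions and no independent evidence. Of 65 genes listed as relatives, subunits or partners of the members, 24 were measured on all arrays, and 0 were higher and 0 lower by limma at gene level, beside 5.15% of all genes that changed in either direction. At an unadjusted p under 0.05 there were 4 of the 24, beside 28.1% of all genes. Their means ran from -0.42 to 0.42 with a median of -0.09, against -0.07 over all genes and -1.84 to -0.65 at the member spots, a range that the choice of the members sets. Without T1, 5 of the 24 passed (Acta2, Dpp8, Tpm1 and Tpm2 lower and Baz2b higher), in a fit in which 18.2% of all genes passed in either direction, 9.65% as lower.

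Pafah1b2, the other catalytic subunit of the same acetylhydrolase, stood at -0.14 (T1), -0.18 (T2) and 0.05 (T3), with a mean of -0.09 ± 0.12 (n = 3; adjusted p = 0.584 by limma). The non-catalytic subunit LIS1, encoded by Pafah1b1, had 0.13, -0.03 and -0.10 (mean 0.00 ± 0.12). Lpcat2, an enzyme that makes platelet-activating factor, had 0.70, -0.32 and -0.19 on T1, T2 and T3. These are the 3 genes with values on all arrays among 7 others in the list.

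For Cecr2, 8 of 13 other genes of its complex and of the ISWI remodellers were measured. The ATPase Smarca5 averaged 0.22 ± 0.31 and the histone chaperone subunits Rbbp4 and Rbbp7 averaged -0.10 ± 0.05 and -0.10 ± 0.10. The lowest of the 8 was Bptf, the large subunit of the NURF remodeller, at -0.22 ± 0.14, and the highest was Baz2b, another bromodomain protein, at 0.42 ± 0.55, with 1.05 on T2 and 0.14 and 0.07 on T1 and T3.

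Dpp8, an intracellular peptidase of the same family as Dpp4, had -0.06 (T1), -0.69 (T2) and -0.34 (T3), with a mean of -0.37 ± 0.32 (n = 3; adjusted p = 0.128 by limma). It was the one measured gene among 9 other family members, and Prep and Dpp10 had values on T1 alone (-0.49 and -0.09). Of the listed ligands and substrates of Dpp4, 3 of 10 were measured. Cxcl12, the chemokine that keeps B-cell precursors in the marrow, stood at -0.12 ± 0.11, the chemokine Ccl11 at 0.18 ± 0.07 and the receptor Igf2r at -0.03 ± 0.12.

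All 9 measured genes of the calponin and actin list (of 15 other than Cnn3) had means below 0, and none passed by limma, with 3 at an unadjusted p under 0.05 (28.1% of all genes). The median over all genes was also below 0, at -0.07, and Acta2 and Cald1 are in the stromal, smooth muscle and endothelial list too. The closest to Cnn3 in size were the tropomyosins Tpm2 (-0.42 ± 0.39) and Tpm1 (-0.34 ± 0.16, adjusted p = 0.0957 by limma). Cnn2, the calponin of non-muscle cells, averaged -0.19 ± 0.04. The smooth muscle actin Acta2 stood at -0.24 ± 0.35, beta-actin Actb -0.01 ± 0.19 and gamma-actin Actg1 -0.01 ± 0.61. For Sbk1, Serinc5 and Lrmp no relative had values on all arrays. The inositol trisphosphate receptor gene Itpr2, a partner of Lrmp, had -0.28 on T1 alone.

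**Figure D4:**
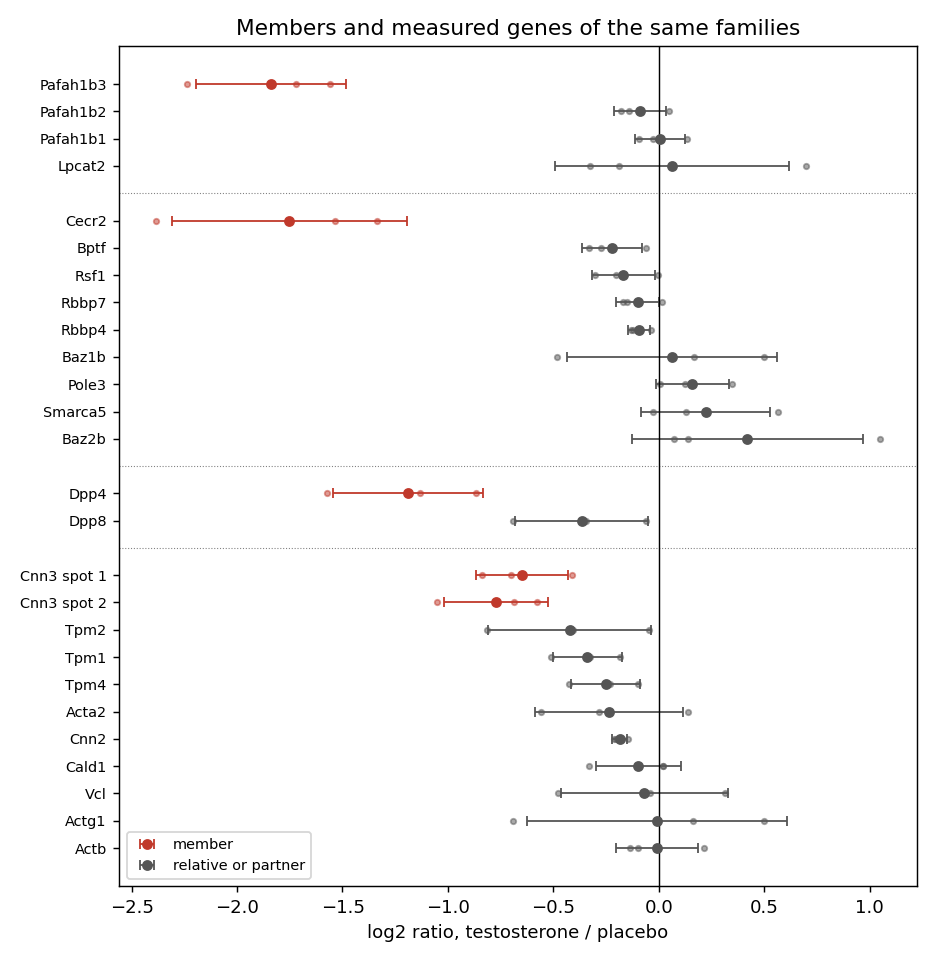
Log2 ratios (horizontal axis) of members (red) and of measured relatives and partners (grey) in 4 gene lists, with a large point and bar for the mean ± SD over 3 arrays and small points for single arrays. The members lie between -1.84 and -0.65, and the relatives between -0.42 and 0.42.

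The direction of T2 matters to every member, since T2 carried the opposite dyes. When the sign of T2 was reversed, so that a treatment effect and a dye effect change places, all 8 means kept their sign at -0.80 (Pafah1b3), -0.73 (Cecr2), -0.58 (Sbk1), -0.41 (Serinc5), -0.35 (Lrmp), -0.18 and -0.07 (Cnn3) and -0.14 (Dpp4), and Cd79b stood at -0.62. The kept sign carries no information on direction, since T1 and T3 stayed negative and together outweighed the turned T2. None of the 9 spots, and 0 of all 6039 spots, passed by limma in that orientation, and 20 had an unadjusted p under 0.05 against 1808 as deposited. As deposited, a fit with a dye term gave means from -1.77 (Pafah1b3) to -0.66 (first Cnn3 spot). Each of the 8 spots was negative on T1 and T3, where testosterone was in Cy5, and on T2, where it was in Cy3. These signs do not tell treatment from dye unless testosterone is the numerator on T2, which is likely and not settled.

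**Figure D5:**
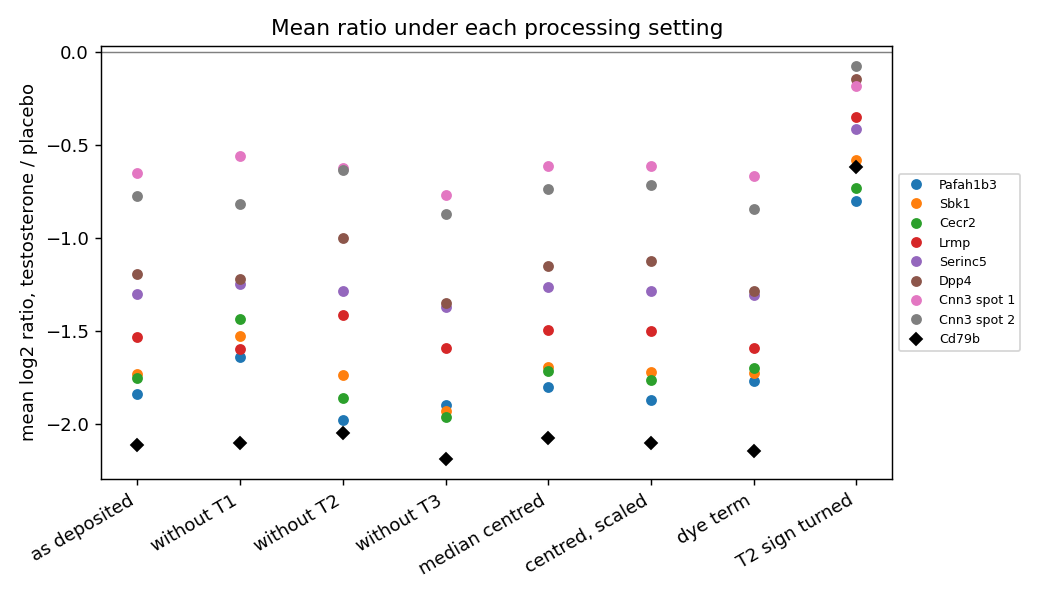
Mean log2 ratio (vertical axis) of each member spot (circles) and Cd79b (black diamonds) under each processing setting. Leaving out an array, centring, scaling or a dye term leaves the 8 spots between -1.98 and -0.56, and turning the sign of T2 brings all of them to between -0.80 and -0.07.

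The members lie on several chromosomes and in several parts of the array, with some shared. Per the RefSeq table, Pafah1b3 and Sbk1 are on chromosome 7, Cecr2 and Lrmp on 6, Dpp4 on 2, Cnn3 on 3, Serinc5 on 13 and Cd79b on 11. Taking the array as 32 consecutive blocks of 361 spots, the spots of Cecr2 and Lrmp shared a block and the other 6 member spots were each in a block of their own. Cecr2 and Lrmp had different lowest arrays, T1 and T2, and the part of array position in the ratios was not tested.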

How the data were processed

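Each deposited value is 1 log ratio per spot and array, per the deposited series matrix, and log2 was assumed from the range (-3.371 to 4.472); with a natural log Pafah1b3 would be 6.29-fold lower. How the authors scanned, background-corrected, filtered and normalized the spots is not given in the sources used. Values were present for 9007, 6771 and 6982 of 11552 spots on T1, T2 and T3, and the number of arrays limits the precision (3 pairs).

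The values were used as deposited, with the sign of T2 kept because all array correlations were positive. Positive correlations do not settle the numerator of T2, since a dye effect shared by the arrays could also give them. Spots with 3 values, less 12 control or non-mouse spots, were tested against 0 (two-sided) in R 4.3.3 by limma 3.58.1 (lmFit, eBayes), p-values being adjusted by Benjamini-Hochberg over all spots, and again over 3493 genes with the spots of a gene averaged. The fit was tested on simulated data. Platform annotation named 1 gene for 8050 spots, and Entrez IDs matched 7880 of them to RefSeq (GRCm38.p6). The members, gene lists, motifs and neighbours were chosen with earlier results of these data known. Named are all members, Cd79b, the relatives by smallest p or by role, the 3 lowest and the highest B-lineage marker, an extreme gene of other marker lists, and the 3 nearest genes of each member, with single genes on fewer arrays or of opposite kind named after their values were seen. Alternatives were each array left out, the sign of T2 turned, centring, scaling, a dye term, spots with 2 values, robust eBayes and a threshold of 0.10. Nothing says whether the pairs were handled apart, so the spread may be partly technical.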

Additional observations from a re-analysis of the deposited data

How the results depend on the processing

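The 8 member spots were negative on every array, so leaving an array out could not change their direction. Adding spots with 2 values and robust eBayes left their means as they were. Their direction was kept with centring, scaling and a dye term. It was also kept with T2 turned, where T1 and T3 together outweighed T2 at each spot. No support is read from a kept direction. The median of their means was -1.42 as deposited, -0.38 with the sign of T2 turned, and -1.48 to -1.34 with 1 array left out. Each of the 8 and Cd79b moved by more than its SD with T2 turned, and by less under the other settings. All 8 passed as lower as deposited and without T1, 6 without T2, 6 without T3, 6 after median centring and 0 with T2 turned. The 2 lost apart from the last setting were the Cnn3 spots. Of all 6039 spots, 103 passed as lower as deposited, 413 without T1, 63 without T2 and 38 without T3. After median centring 53 did, and 0 with T2 turned. The member counts follow from the choice of the genes, and nothing is read from them. The count of changed spots, 171 as deposited (39.8% higher), was 0 with T2 turned, 57 after median centring (7.02% higher), 816 after centring and scaling (72.9%), 1309 with a dye term (60%), and 1165 at a threshold of 0.10 (62.1%). It ran from 38 without T3 (all lower) to 84 without T2 and 1095 without T1 (62.3% higher). The count of changed relatives, 0 of 24 as deposited, was 0 to 5 with an array left out (5 without T1), 2 with a dye term (Baz2b and Tpm2, beside 11.9% of all genes) and 1 at a threshold of 0.10 (Tpm1, beside 14.4%). The causes were not tested. The median distance of the member spots from Cd79b was 0.70, and 0.82 by the largest difference on any array. Each value already is a ratio within a mouse pair, so the tests against 0 used the pairing. Without spot intensities, no ratio could be weighed by its signal over background.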
